A study of Mus musculus with 76 samples.

Results

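The DNA replication and S-phase genes examined here are 40 genes of replication licensing, the replication fork, nucleotide supply and S-phase entry, chosen by name and read from a table of raw counts for 54232 genes, in which all 40 were found. They divide by role into 10 licensing and origin recognition genes, 6 genes of helicase activation and the fork, 9 polymerase, primase, clamp and clamp loader genes, 6 genes of Okazaki fragment joining, base excision and chromatin assembly, 5 nucleotide supply genes and 4 G1/S control genes. RNA was sequenced from 3 bulk tissues, kidney, heart and visceral adipose tissue (VFAT), of male Fox Chase SCID mice aged 12 weeks (CB17/Icr-Prkdcscid/IcrlcoCrl), so every arm, controls included, carries the Prkdc scid allele, which affects DNA double-strand break repair and leaves the mice without mature T and B cells. The 5 arms of each tissue were Sham (sham surgery, no transplantation), PNx (partial nephrectomy, no transplantation), and partial nephrectomy with transplantation of Control Cells, of Lenti-adipo-NaKtide cells or of Lenti-adipo-scrambled cells, called Control, NaKtide and Scrambled below. NaKtide is a peptide derived from the Na/K-ATPase that blocks its signalling through Src. Each arm of each tissue had 5 samples except Scrambled in VFAT, which had 4. Whether the libraries of an arm are separate animals, which kidney was taken and what the Control Cells were cannot be read from the labels. A p-value here therefore reflects the spread among the libraries sequenced, which may be technical.

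Before S phase, the origin recognition complex with Cdc6 and Cdt1 loads the Mcm2-7 helicase onto origins, and Cdc45 and the GINS complex then turn it into an active helicase. The clamp Pcna, loaded by replication factor C, holds the polymerases on DNA, while ribonucleotide reductase, thymidylate synthase and thymidine kinase supply the nucleotides. Many of these genes are targets of E2F transcription factors, which the retinoblastoma proteins hold in check in resting cells; the adult kidney, heart and fat divide little, and tubule cells of the kidney are known to re-enter the cycle after injury or loss of kidney mass.

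To show the promoter element most often tied to these genes, the stretch from 250 bases before to 30 bases after the start is given for Mcm5, Mcm7 and Rfc3, taken from RefSeq (GRCm38.p6), gene strand, 5′ to 3′, with matches to an E2F form in capitals. Mcm7 and Rfc3 rose in the kidney after PNx and Mcm5 did not pass the test there.
Mcm5, chr8:75109259-75109538, plus strand: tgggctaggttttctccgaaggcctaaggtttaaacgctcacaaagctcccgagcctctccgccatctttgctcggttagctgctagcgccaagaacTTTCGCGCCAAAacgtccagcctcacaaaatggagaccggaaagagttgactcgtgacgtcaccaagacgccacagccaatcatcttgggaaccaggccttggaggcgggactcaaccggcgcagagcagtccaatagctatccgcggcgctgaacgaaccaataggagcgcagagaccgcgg
Mcm7, chr5:138171854-138172133, minus strand: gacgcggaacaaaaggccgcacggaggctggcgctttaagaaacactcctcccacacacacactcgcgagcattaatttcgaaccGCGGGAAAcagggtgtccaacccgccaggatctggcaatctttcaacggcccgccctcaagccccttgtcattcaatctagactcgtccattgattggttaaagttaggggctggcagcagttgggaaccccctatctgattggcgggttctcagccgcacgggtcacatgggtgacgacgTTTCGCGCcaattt
Rfc3, chr5:151651179-151651458, minus strand: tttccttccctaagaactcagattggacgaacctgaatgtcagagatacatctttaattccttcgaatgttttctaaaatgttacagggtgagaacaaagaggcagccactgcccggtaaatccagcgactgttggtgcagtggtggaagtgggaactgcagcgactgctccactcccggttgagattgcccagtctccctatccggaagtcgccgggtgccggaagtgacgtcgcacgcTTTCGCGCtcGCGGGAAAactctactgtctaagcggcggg
Each stretch holds 2 matches. The 2 matches in Mcm5, TTTCGCGC on the gene's strand and TTTGGCGC on the other, overlap at bases -153 to -142 before the start. In Rfc3 they lie at -10 to -3 and 1 to 8, and in Mcm7, shown for 1 of its 2 windows, at -165 to -158 and 17 to 24.

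The forms searched were TTTCGCGC, TTTGGCGC, TTTCCCGC and TTTGCCGC on both strands of each 300-base promoter window. At least 1 of them was found in 14 of the 35 members with a window (40%), among them Orc1, Cdc6, Cdt1, Mcm3, Mcm6, Uhrf1 and Dtl, against 2.605% of 27025 genes with a window. The CCAAT box of NF-Y was found in 20 of the 35 (57.14%, against 41.06% of all genes), and the cell cycle homology region form TTTGAA, an element of mitotic genes, in 3 of the 35 (8.571%, against 20.23%). Among the 7 members with a window that rose in the kidney after PNx, 2 held an E2F form. Among the other 28, which were not called or not tested there, 12 did, with Orc1, Cdc6 and Clspn among those not tested. A match is a string of letters in this window and was not tied to binding.

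Total counts per sample were 1241590 to 16912788 in the kidney (median 9834586), 2803991 to 12986214 in the heart (median 8495773) and 5666563 to 22287510 in VFAT (median 8148981). The 8 kidney markers (such as Slc34a1, Lrp2 and Umod) summed to at least 10691 CPM (read counts scaled to a common library size) in each kidney library, the 6 heart markers to at least 23470 CPM in each heart library and the 6 adipose markers to at least 2275 CPM in each VFAT library. Several libraries stood apart. In VFAT Sham, 8 epididymis and testis markers (Defb42, Lcn5, Lcn8, Crisp1, Cst11, Tnp1, Prm1 and Prm2) summed to 8910, 103, 4596, 7934 and 3739 CPM in libraries 1 to 5, against at most 48.4 CPM in any other VFAT library. In the heart, 7 neutrophil markers summed to 1242 CPM in 1 PNx library and 790 CPM in 1 Scrambled library, against a median of 5.95 CPM in Sham. Among heart Sham libraries, 8 kidney markers summed to 936 CPM in library 2 and 2872 CPM in library 3, against a median of 54.9 CPM, and 7 red cell precursor markers to 3238 to 28994 CPM, with library 3 the highest. In the kidney the neutrophil markers reached 2607 CPM in PNx library 3, against a median of 2.63 CPM in Sham. An index of RNA length, the mean log2 CPM of the shortest of 4 equal length classes of genes minus that of the longest, was -1.11 to -0.92 in kidney Sham and -0.99 and -1.08 in PNx libraries 1 and 2, but 0.16 and 0.17 in PNx libraries 3 and 5 and -0.00099 in library 4.

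**Figure D1:**
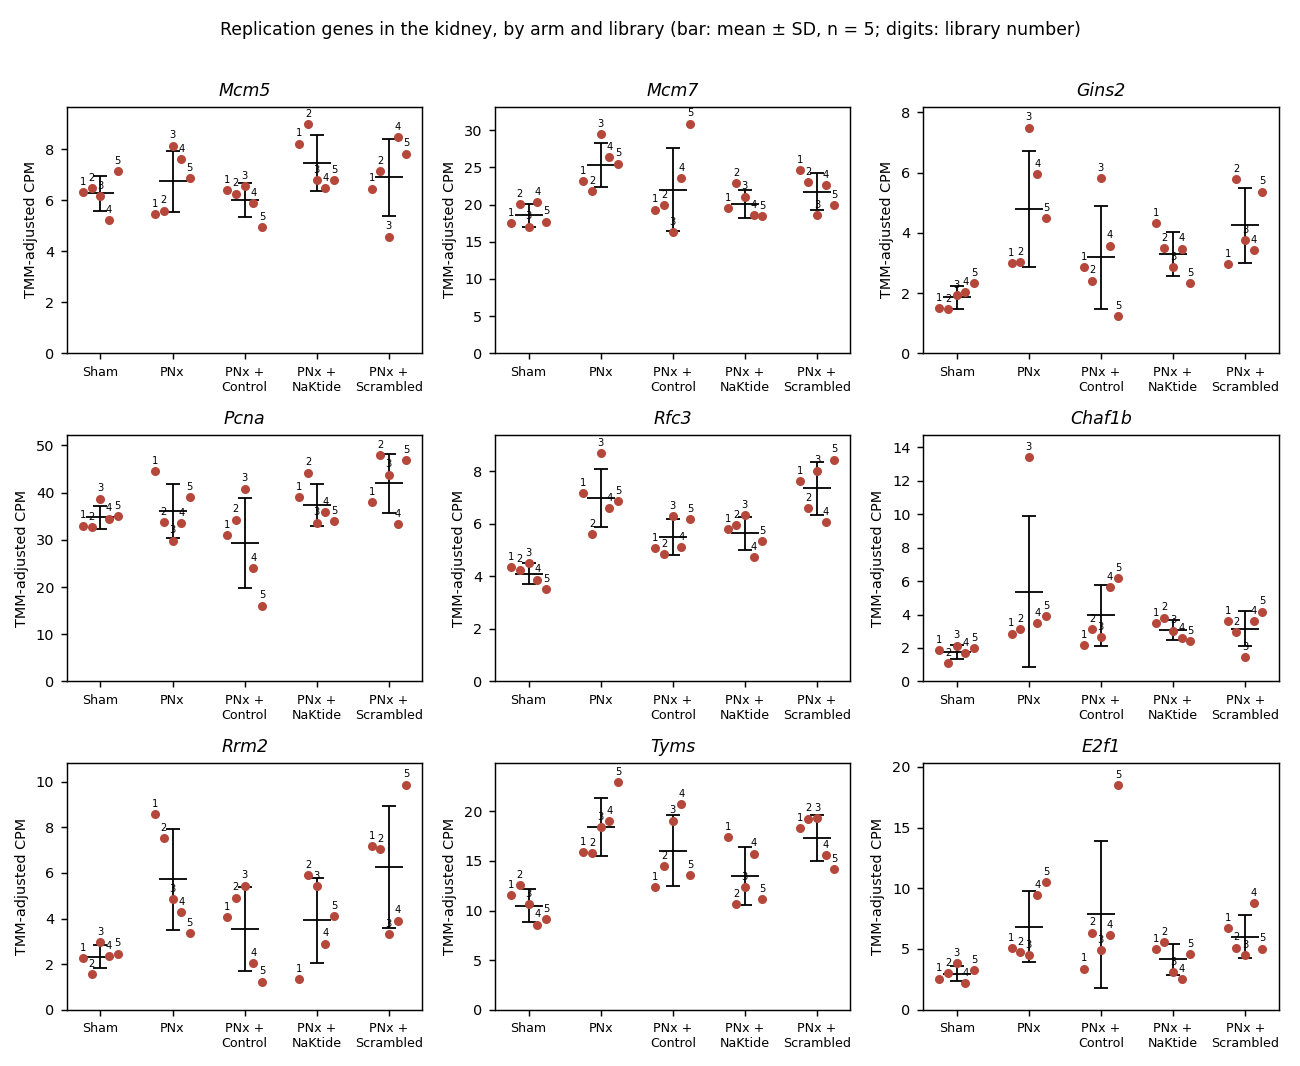
TMM-adjusted CPM (vertical axes) of 9 replication genes in each kidney library, by arm; points are libraries with their number, bars the mean ± SD of 5. Every PNx library lies above every Sham library for Mcm7, Gins2, Rfc3, Chaf1b, Rrm2, Tyms and E2f1, while the 2 groups overlap for Mcm5 and Pcna.

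In the kidney, partial nephrectomy was accompanied by higher levels of 8 replication genes, and no member fell. Chaf1b (2.98-fold), Gins2 (2.56-fold), Rrm2 (2.45-fold), E2f1 (2.26-fold), Tk1 (1.87-fold), Tyms (1.75-fold), Rfc3 (1.69-fold) and Mcm7 (1.36-fold) passed edgeR's quasi-likelihood test at an adjusted p under 0.05 (Benjamini-Hochberg over 16307 genes), out of 35 members tested. Of all genes tested, 9.25% rose and 7.56% fell, so the members' 8 of 35 (22.9%) stands beside that share. The members' median log2 fold change was 0.35, against 0.05 over all genes, and 29 of 35 were positive, against 53.3% of all genes. At an unadjusted p under 0.05 there were 12 members, all higher, beside 42.2% of all genes. Members not tested because of low counts were Orc1, Cdc6, Clspn, Fen1 and Ccne2.

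The 3 called genes of nucleotide supply were among 5 tested. Rrm2, the small subunit of ribonucleotide reductase, stood at 2.27, 1.57, 2.98, 2.36 and 2.46 CPM in Sham libraries 1 to 5 and at 8.59, 7.52, 4.86, 4.27 and 3.36 CPM in PNx libraries 1 to 5. Every PNx library was above every Sham library, with the highest values in PNx 1 and 2 (log2 fold change 1.30, SE 0.37, adjusted p = 0.0306 by edgeR). Tyms, thymidylate synthase, was at 11.5, 12.5, 10.7, 8.58 and 9.14 CPM in Sham and at 15.9, 15.8, 18.4, 19.0 and 23.0 CPM in PNx, again without overlap (log2 fold change 0.80, SE 0.17, adjusted p = 0.0109 by edgeR). Tk1, the cytosolic thymidine kinase, was at 8.98, 8.18, 7.14, 8.92 and 6.79 CPM in Sham and at 9.11, 11.0, 18.7, 15.5 and 20.9 CPM in PNx. PNx 1 lay barely above the highest Sham library and PNx 3, 4 and 5 were highest, unlike Rrm2, whose highest libraries were PNx 1 and 2 (log2 fold change 0.91, SE 0.24, adjusted p = 0.0244 by edgeR). Tk1 overlaps Afmid and Gm20708 on the opposite strand, and no source used here gives the strand setting of the counting. Rrm1, the large reductase subunit, was at 13.2 ± 3.81 CPM (SD, n = 5) in PNx and 14.5 ± 1.22 CPM in Sham and did not pass the test (edgeR adjusted p = 0.595). Dut, which removes dUTP, was at 24.1 ± 7.25 against 17.5 ± 1.37 CPM (edgeR adjusted p = 0.0859).

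Among the 8 licensing genes tested, Mcm7 alone passed. It was at 17.5, 20, 17, 20.4 and 17.7 CPM in Sham and at 23.2, 21.8, 29.5, 26.4 and 25.5 CPM in PNx, so the groups did not overlap although the change was the smallest among the 8 called members (log2 fold change 0.45, SE 0.14, adjusted p = 0.0362 by edgeR). The other helicase subunits had log2 fold changes of -0.01 for Mcm2, 0.06 for Mcm3, -0.34 for Mcm4, 0.10 for Mcm5 and 0.46 for Mcm6, none past the test. Mcm5 was at 6.34, 6.50, 6.17, 5.22 and 7.15 CPM in Sham and 5.46, 5.60, 8.15, 7.64 and 6.87 CPM in PNx, with PNx 3 and 4 above the Sham range and the other 3 inside it. Mcm7 shares its locus (chromosome 5, 138164583 to 138172422 in GRCm38) with Ap4m1 and Cops6 on the opposite strand and with the microRNA genes Mir106b, Mir25 and Mir93 on its own. No source used here gives the strand setting of the counting, and in the stretches they share, reads of these neighbours and of Mcm7 cannot be told apart.

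At the fork, Gins2, a subunit of the GINS complex that activates the helicase, was at 1.51, 1.46, 1.94, 2.02 and 2.34 CPM in Sham and 2.99, 3.04, 7.49, 5.95 and 4.48 CPM in PNx (log2 fold change 1.36, SE 0.31, adjusted p = 0.0137 by edgeR). All 5 PNx libraries were above Sham, with PNx 3, 4 and 5 the highest. Gins2 lies within a region that Gse1 shares on the opposite strand. Rpa2, a subunit of the single-strand binding complex, was also higher in every PNx library (12.1 ± 2.18 against 8.07 ± 1.31 CPM) and did not pass (edgeR adjusted p = 0.0537). Cdc45, the helicase cofactor, had a log2 fold change of 0.64 (edgeR adjusted p = 0.0897) and Gins1 one of 0.48. Mcm10 was at 8.03 ± 5.15 CPM in PNx and 9.22 ± 0.38 CPM in Sham, with 17.1 CPM in PNx 5 and at most 7.12 CPM in the other PNx libraries.

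Of the 9 polymerase, clamp and loader genes, Rfc3, a clamp loader subunit, passed with the lowest p of all members. It was at 4.35, 4.26, 4.50, 3.87 and 3.51 CPM in Sham and at 7.15, 5.60, 8.68, 6.60 and 6.87 CPM in PNx, with no overlap (log2 fold change 0.76, SE 0.15, adjusted p = 0.00801 by edgeR). Pcna, the clamp itself, was at 33.0, 32.7, 38.7, 34.5 and 35 CPM in Sham and 44.5, 33.8, 29.8, 33.5 and 39.1 CPM in PNx. Its 2 groups overlapped (log2 fold change 0.05, SE 0.17, adjusted p = 0.824 by edgeR). Rfc4 (0.02) and Rfc5 (0.24), the other clamp loader subunits listed, had log2 fold changes that did not pass either, and the polymerase genes Pold1 (0.53), Pole (0.47), Prim1 (0.35), Pola2 (0.30) and Pola1 (-0.42) did not pass.

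Chaf1b, a subunit of the histone chaperone CAF-1 that packs new DNA, rested most on a single library. It was at 1.89, 1.12, 2.15, 1.68 and 1.99 CPM in Sham and at 2.86, 3.15, 13.4, 3.49 and 3.92 CPM in PNx, where library 3 was far above the others (log2 fold change 1.57, SE 0.39, adjusted p = 0.0194 by edgeR). Without PNx 3 it did not pass (0.89, adjusted p = 0.106). Its partner Chaf1a had a log2 fold change of -0.13, and Uhrf1, which brings DNA methylation to new DNA, one of 0.00091. E2f1, an activator of S-phase genes, was at 2.55, 3.02, 3.81, 2.19 and 3.28 CPM in Sham and 5.07, 4.74, 4.47, 9.45 and 10.5 CPM in PNx. All PNx libraries exceeded Sham, with PNx 4 and 5 highest (log2 fold change 1.18, SE 0.35, adjusted p = 0.0319 by edgeR). Dtl, an adaptor of the ligase that degrades Cdt1, was at 0.63 ± 0.34 CPM in PNx and 0.56 ± 0.23 CPM in Sham.

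Counting members whose PNx libraries all exceeded all Sham libraries gave 9 of 35 (the 8 called and Rpa2), beside 5.23% of all genes, and none lay wholly below, beside 7.68%. The count of called members depended on which libraries entered. It was 2 (Rfc3 and Tyms) without PNx 3. In that fit Rrm2 had a log2 fold change of 1.34, E2f1 of 1.27, Gins2 of 1.12, Chaf1b of 0.89, Tk1 of 0.80 and Mcm7 of 0.37, at edgeR adjusted p of 0.0525 to 0.132, and 307 genes in all were called, against 2742. The count was 1 (Rrm2, log2 fold change 1.76, adjusted p = 0.0457) without the 5 kidney libraries of high length index (PNx 3, 4 and 5, Control 4 and 5). In that last fit, which has 2 PNx libraries, 97 genes in all were called, against 2742. Of 12 macrophage markers 7 rose in PNx, with summed levels of 115 to 147 CPM in Sham and 120 to 1793 CPM in PNx, and all 3 neutrophil markers tested rose. With the RNA length index as a term in the fit, 3 members were called, Rrm2 (log2 fold change 1.91), Rfc3 (0.70) and Tyms (0.54), and the members' median was 0.16. Chaf1b (1.03), Gins2 (0.95), E2f1 (0.78), Tk1 (0.39) and Mcm7 (0.34) were smaller there than without it and did not pass, at edgeR adjusted p of 0.0854 to 0.198. The part of leukocyte transcripts in these changes was not tested beyond the fit without PNx 3. In bulk tissue, more cells of a type and more RNA per cell cannot be told apart.

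Other genes of the cell cycle were read from lists beside the members. Of 19 mitosis genes tested in the kidney, 13 rose and none fell, with a median log2 fold change of 1.72. Cdk1, the mitotic kinase, was at 4.78 ± 0.87 CPM in PNx and 1.32 ± 0.36 in Sham (log2 fold change 1.81, edgeR adjusted p = 0.00101), and Mki67, a marker of cycling cells, at 10.9 ± 3.03 and 2.89 ± 0.85 CPM (1.92, edgeR adjusted p = 0.00471). Of 23 G1/S regulators, 3 rose and 4 fell. Cyclin A2 (Ccna2, 1.74), E2f2 (1.37) and the cell cycle inhibitor Cdkn1a (p21, 2.24) rose, and cyclin D1 (Ccnd1) fell by 0.70, Cdkn1b by 0.75 and Rbl2 by 1.07, all on the log2 scale. Of 39 further replication genes, 6 rose, such as the histone chaperone Asf1b (1.45) and Gins4 (0.59), and 2 fell, among them Rrm2b, the p53-inducible reductase subunit, by 0.73. The median of these 39 was -0.01.

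**Figure D2:**
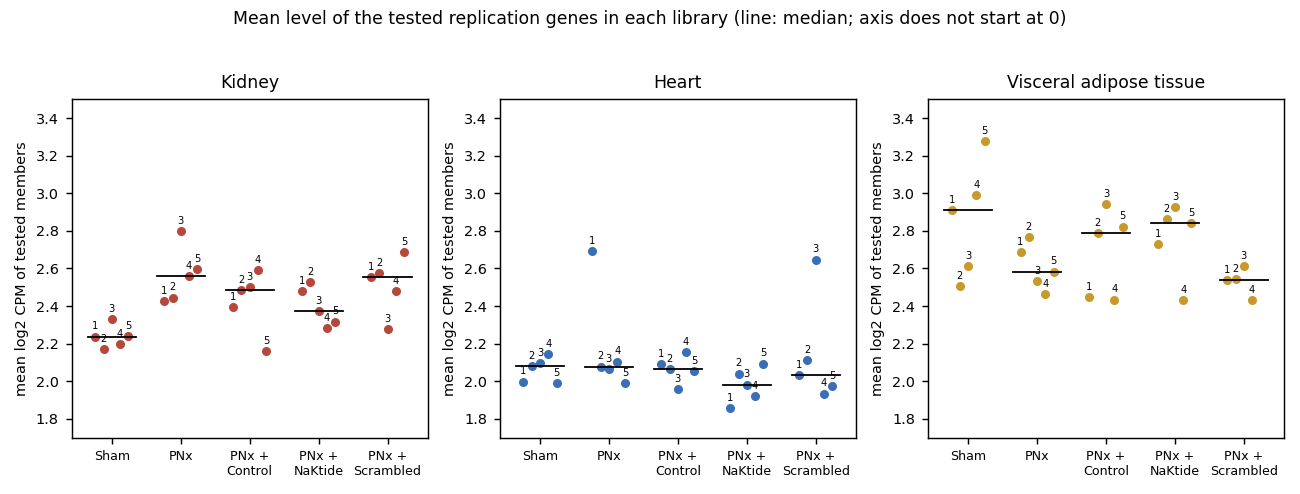
Mean log2 CPM of the tested replication genes in each library (vertical axes, not starting at 0), by arm, in kidney (35 genes), heart (32) and VFAT (37); the line is the arm's median. Kidney PNx libraries lie between 2.43 and 2.80 and kidney Sham between 2.17 and 2.33, and in the heart PNx 1 (2.69) and Scrambled 3 (2.65) stand above all other heart libraries.

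Among the kidney arms with transplanted cells, no member was called in any comparison: 0 of 35 in NaKtide against PNx, Control against PNx, Scrambled against PNx, NaKtide against Scrambled and Scrambled against Control by edgeR, where 0% of all genes were called except in Scrambled against Control (0.0123%). In the same order, at an unadjusted p under 0.05 there were 7, 3, 0, 2 and 4 members, beside 19.1%, 6.43%, 13.1%, 5.02% and 10.7% of all genes. DESeq2 called 0 in each of the 5, and limma voom with quality weights called 9, 0, 0, 9 and 5. Of all 16307 genes, limma voom called 6773, 2088, 915, 4401 and 1489 there, and DESeq2 0, 20, 13, 14 and 89. The mean log2 CPM of the tested members had a median of 2.37 in NaKtide (2.28 to 2.53), 2.56 in PNx and 2.24 in Sham.

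The 7 members at an unadjusted p under 0.05 in NaKtide against PNx were all lower with NaKtide. Tk1 was at 13.5, 8.36, 6.15, 9.85 and 8.11 CPM in NaKtide libraries 1 to 5 (log2 fold change -0.71, SE 0.24, edgeR adjusted p = 0.258), with libraries 1 and 4 above the Sham range of 6.79 to 8.98 CPM, library 3 below it and libraries 2 and 5 inside it. Tyms was at 17.4, 10.7, 12.4, 15.7 and 11.2 CPM (-0.45, SE 0.17, edgeR adjusted p = 0.258), and Mcm7 at 19.6, 22.9, 21.1, 18.6 and 18.4 CPM (-0.33, SE 0.14, edgeR adjusted p = 0.258). Both overlapped with PNx. Of the 35 members 10 were positive, with a median log2 fold change of -0.26 against 0.01 over all genes. Without PNx 3 that median was -0.02, with 3 members at an unadjusted p under 0.05, and without the 5 libraries of high length index it was -0.10, with 1. Neutrophil markers summed to 2.16 to 4.21 CPM in NaKtide, and macrophage markers to 145 to 346 CPM. Of the 19 mitosis genes, 9 were lower at an unadjusted p under 0.05 and none was called. The NaKtide and Scrambled arms share PNx as their comparator, and NaKtide against Scrambled gave Rfc3 (5.63 ± 0.612 against 7.34 ± 0.997 CPM, log2 fold change -0.38, edgeR adjusted p = 0.876) and Tyms (13.5 ± 2.95 against 17.3 ± 2.34 CPM, -0.37, edgeR adjusted p = 0.879) as its members of lowest p.

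In the Control arm, E2f1 was at 3.37, 6.35, 4.88, 6.13 and 18.5 CPM, the last in a library of 1241590 counts, the smallest of all. Pcna was at 31.0, 34.3, 40.9, 24.0 and 16.1 CPM there, and Rrm2 at 4.05, 4.92, 5.45, 2.04 and 1.23 CPM, so the Control libraries with a length index above 0 (4 and 5) were low for Pcna and Rrm2 and library 5 was high for E2f1. These values rest on few reads: Control 5 had 13 for Pcna, 1 for Rrm2 and 15 for E2f1, and Control 4 had 94, 8 and 24. In Scrambled against Control, Mcm10 was lower (6.34 ± 1.97 against 13.2 ± 5.69 CPM, log2 fold change -1.09, edgeR adjusted p = 0.26) and Rfc3 higher (0.44, edgeR adjusted p = 0.354). Uhrf1 was the only member whose libraries did not overlap between Control and PNx (3.88 ± 0.632 against 2.5 ± 0.452 CPM, beside 0.184% of all genes above and 0.38% below), at an edgeR adjusted p of 0.751.

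**Figure D3:**
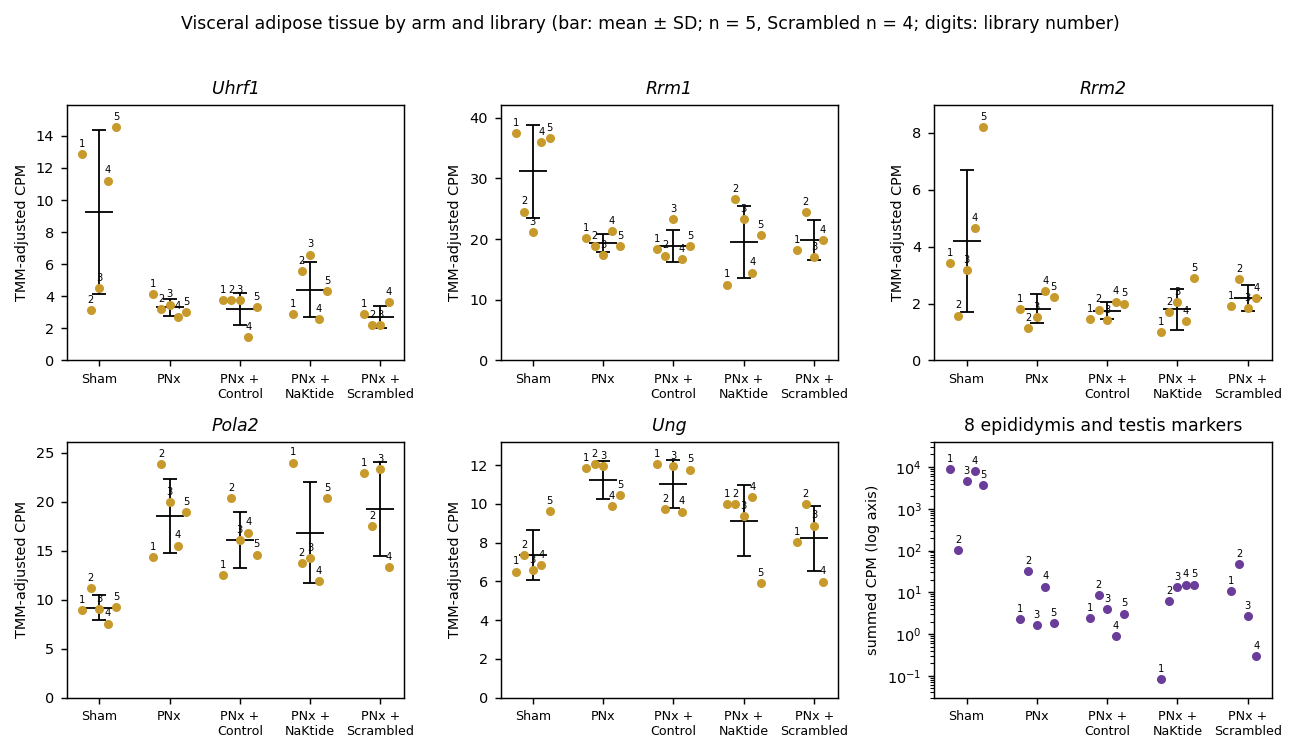
TMM-adjusted CPM of Uhrf1, Rrm1, Rrm2, Pola2 and Ung in each VFAT library, and the summed CPM of 8 epididymis and testis markers (log axis), by arm; points are libraries with their number, bars the mean ± SD of 5 (Scrambled 4). VFAT Sham 2, with 103 CPM of the markers, lies among the PNx libraries for Uhrf1 and Rrm2, while Pola2 and Ung are higher in every PNx library than in every Sham library.

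In VFAT, 6 members fell and 2 rose after PNx, of 37 tested (13% of all genes were called, 4.83% higher and 8.18% lower). The members that fell were Uhrf1, Rrm1, Rrm2, Rfc4, Rfc5 and Dtl, and those that rose were Pola2, which ties primase to DNA polymerase alpha, and Ung, the uracil-DNA glycosylase. Their median log2 fold change was -0.29, against 0.01 over all genes, and 14 were at an unadjusted p under 0.05 (27.2% of all genes). All PNx libraries lay above all Sham libraries for Mcm7, Pola2 and Ung (3.38% of all genes) and below them for Tk1 (2.26%). This comparison rests on Sham libraries of which 4 held 3739 to 8910 CPM of epididymis and testis transcripts, and the values of Sham 2, with 103 CPM, are given with each gene.

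Uhrf1 was at 12.9, 3.16, 4.50, 11.2 and 14.5 CPM in Sham libraries 1 to 5 and at 4.11, 3.22, 3.48, 2.74 and 3 CPM in PNx. Sham 2 lay inside the PNx range and Sham 3 just above it, while the other 3 were far above it (log2 fold change -1.48, SE 0.37, adjusted p = 0.0116 by edgeR). Rrm2 was at 3.42, 1.58, 3.19, 4.66 and 8.2 CPM in Sham and 1.81, 1.14, 1.51, 2.43 and 2.22 CPM in PNx, with Sham 2 again inside the PNx range (-1.21, SE 0.35, adjusted p = 0.027 by edgeR). Rrm1 was at 37.4, 24.5, 21.2, 35.9 and 36.7 CPM in Sham and 20.2, 18.9, 17.4, 21.3 and 18.8 CPM in PNx, where only Sham 3 fell below the highest PNx value (-0.69, SE 0.20, adjusted p = 0.0236 by edgeR).

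The clamp loader genes Rfc5 (12.7 ± 3.92 against 7.50 ± 1.33 CPM in PNx, log2 fold change -0.76, edgeR adjusted p = 0.0236) and Rfc4 (5.02 ± 0.87 against 3.22 ± 0.50 CPM, -0.64, edgeR adjusted p = 0.0322) fell, and Sham 2 was the lowest Sham library for both (6.66 and 3.86 CPM). Dtl fell from 4.51 ± 1.58 to 2.50 ± 0.58 CPM (-0.85, edgeR adjusted p = 0.0389), and here Sham 2, at 5.96 CPM, was among the 2 highest. Rfc4 overlaps Eif4a2 and Rfc5 overlaps Wsb2 on the opposite strand.

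Pola2 was at 8.95, 11.2, 9.01, 7.57 and 9.26 CPM in Sham and 14.3, 23.9, 20, 15.5 and 18.9 CPM in PNx, with no overlap and Sham 2 the highest Sham library (log2 fold change 1.01, SE 0.21, adjusted p = 0.00326 by edgeR). Ung was at 6.51, 7.36, 6.59, 6.84 and 9.61 CPM in Sham and 11.8, 12.0, 12.0, 9.88 and 10.4 CPM in PNx, likewise without overlap (0.60, SE 0.17, adjusted p = 0.0263 by edgeR). Mcm7 also lay higher in all PNx libraries (27.4 ± 3.37 against 20.9 ± 1.75 CPM) without passing (edgeR adjusted p = 0.149). With Sham 2 as the only Sham library, the signs of Uhrf1 (0.072), Rfc5 (0.18) and Rrm2 (0.20) turned, while Pola2 (0.73), Ung (0.61), Rrm1 (-0.34), Rfc4 (-0.25) and Dtl (-1.25) kept theirs. No member was called in that fit, in which a lone Sham library is assumed to vary like the other groups. The part of the epididymis and testis transcripts in the falls was not tested.

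Tk1 was at 3.58, 3.33, 3.62, 6.26 and 10.1 CPM in Sham and 2.47, 2.8, 2.12, 2.58 and 2.61 CPM in PNx, lower in every PNx library and not past the test (log2 fold change -1.09, edgeR adjusted p = 0.117). Chaf1b ran from 0.175 CPM (1 read, Sham 2) to 9.31 CPM in Sham and from 0.914 to 4.36 CPM in PNx. Mcm5 was at 12.7, 4.38, 5.16, 14.3 and 14.8 CPM in Sham and 9.37, 9.24, 4.54, 4.87 and 5.09 CPM in PNx, so Sham 2 and 3 were low and Sham 1, 4 and 5 high, as for Uhrf1. Pcna overlapped between the groups, at 40.8 to 63 CPM in Sham and 42.3 to 51.6 CPM in PNx. Other markers also differed: all 6 skeletal muscle markers fell, and 6 of 12 macrophage markers rose (294 to 668 CPM summed in Sham, 669 to 1441 CPM in PNx). The skeletal muscle sums overlapped, at 7.81 to 9114 CPM in Sham (median 33.8) and 10.4 to 22.2 CPM in PNx. Adipose markers summed to 2275 to 19068 CPM in Sham (median 9134) and 13890 to 17349 CPM in PNx.

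Of 19 mitosis genes in VFAT, 9 fell and none rose, with a median log2 fold change of -1.29. Mki67 was at 17.1, 8.24, 4.50, 17.9 and 40.2 CPM in Sham and at 2.12 to 7.83 CPM in PNx (-1.93, edgeR adjusted p = 0.0327). Of 41 further replication genes none was called by edgeR (3 at an unadjusted p under 0.05), and of 24 G1/S regulators 2 rose, Myc (1.23) and Cdkn1c (1.10).

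Between the PNx arms of VFAT, 1 member was called in 5 comparisons. Mcm10, which helps switch on the helicase, was at 0.16, 1.19, 7.39, 0.30 and 24.0 CPM in Control and 0.36, 0.39, 0.45 and 0.73 CPM in Scrambled (log2 fold change -3.78, SE 1.0, edgeR adjusted p = 0.0475, beside 2.41% of all genes called, 1.94% higher and 0.467% lower). The difference rests on Control 5, with 491 of the arm's reads on Mcm10, and Control 3, with 57, and it did not pass without either library. Without any 1 of the 4 Scrambled libraries it did not pass either. In Control, NaKtide and Scrambled against PNx and in NaKtide against Scrambled, 0 of 37 members were called by edgeR (0%, 0%, 1.82% and 2.36% of all genes), with 3, 1, 1 and 1 at an unadjusted p under 0.05, beside 2.52%, 3.71%, 16.1% and 19.4% of all genes. DESeq2 called 0 in each and limma voom 0, 7, 2 and 1. The share of all genes called by limma voom is not given here. The Scrambled libraries also held skeletal muscle markers (514 to 38363 CPM summed over 6 genes) and pancreas acinar markers (4.56 to 19806 CPM).

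In the heart no member was called in any of 6 comparisons by edgeR, of 32 tested. Against Sham, PNx gave 3 members at an unadjusted p under 0.05 (15.8% of all genes), with 0.126% of all genes called. Pcna was at 27.0, 21.3, 25.9, 29.0 and 29.3 CPM in Sham and 47.8, 33.5, 34.9, 36.6 and 37.9 CPM in PNx. Every PNx library was above every Sham library (log2 fold change 0.52, SE 0.12, edgeR adjusted p = 0.0737), it was the only member without overlap (0.848% of all genes above, 0.742% below), and DESeq2 called it, while limma voom called no member. Of the 10 fits that left out 1 library, Pcna passed in edgeR only without Sham library 5 (0.56, adjusted p = 0.0336). Over those fits its log2 fold change ran from 0.41 to 0.57 and its edgeR adjusted p up to 0.262. Pcna was lower in the 3 transplanted arms than in PNx, at 32.2 ± 2.94 CPM in Control, 30.1 ± 3.16 in NaKtide and 29.3 ± 4.41 in Scrambled against 38.2 ± 5.65 in PNx, differences that share the PNx libraries and did not pass (edgeR adjusted p = 0.592, 0.559 and 0.0785).

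In the heart, single libraries were the highest of their arm for many members. PNx 1 was the highest of its arm for 23 of 32 members (33.2% of all genes) and Scrambled 3 for 21 of 32 (31.5%), and these are the libraries with the most neutrophil transcripts in their arms. NaKtide 5 was the highest for 16 of 32 (25.1% of all genes), in an arm whose neutrophil markers summed to at most 6.75 CPM. Tyms was at 1.62, 2.17, 1.36, 1.06 and 0.88 CPM in Sham and 6.23, 1.97, 1.88, 2.1 and 2.02 CPM in PNx (log2 fold change 1.03, edgeR adjusted p = 0.294). Mcm5 was at 10.3 and 5.56 CPM in PNx 1 and 2 and 3.14 to 3.60 CPM in PNx 3 to 5, inside the Sham range of 2.63 to 4.55. Uhrf1 was at 8.89 CPM in Scrambled 3 and at most 2.63 CPM in the other Scrambled libraries. Unlike PNx 1, PNx 2 was the highest of its arm for 0 of 32 members (12.5% of all genes). Neutrophil marker sums were 1242 and 595 CPM in PNx 1 and 2 and 790 CPM in Scrambled 3. The part of these cells was not tested; macrophage markers also peaked in PNx (1837 CPM at most, median 397). With PNx 1 and 2 and Scrambled 3 left out, no member was called either. In Control, NaKtide and Scrambled against PNx, NaKtide against Scrambled and Scrambled against Control there were 3, 4, 3, 2 and 2 members at an unadjusted p under 0.05, beside 8.36%, 8.28%, 24.9%, 5.98% and 7.28% of all genes, and 0%, 0%, 1.17%, 0% and 0% of all genes were called. DESeq2 and limma voom each called 2 members in Scrambled against PNx, Rfc4 and Pcna, both lower, and none in the other 4. The shares of all genes called by these methods are not given here.

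**Figure D4:**
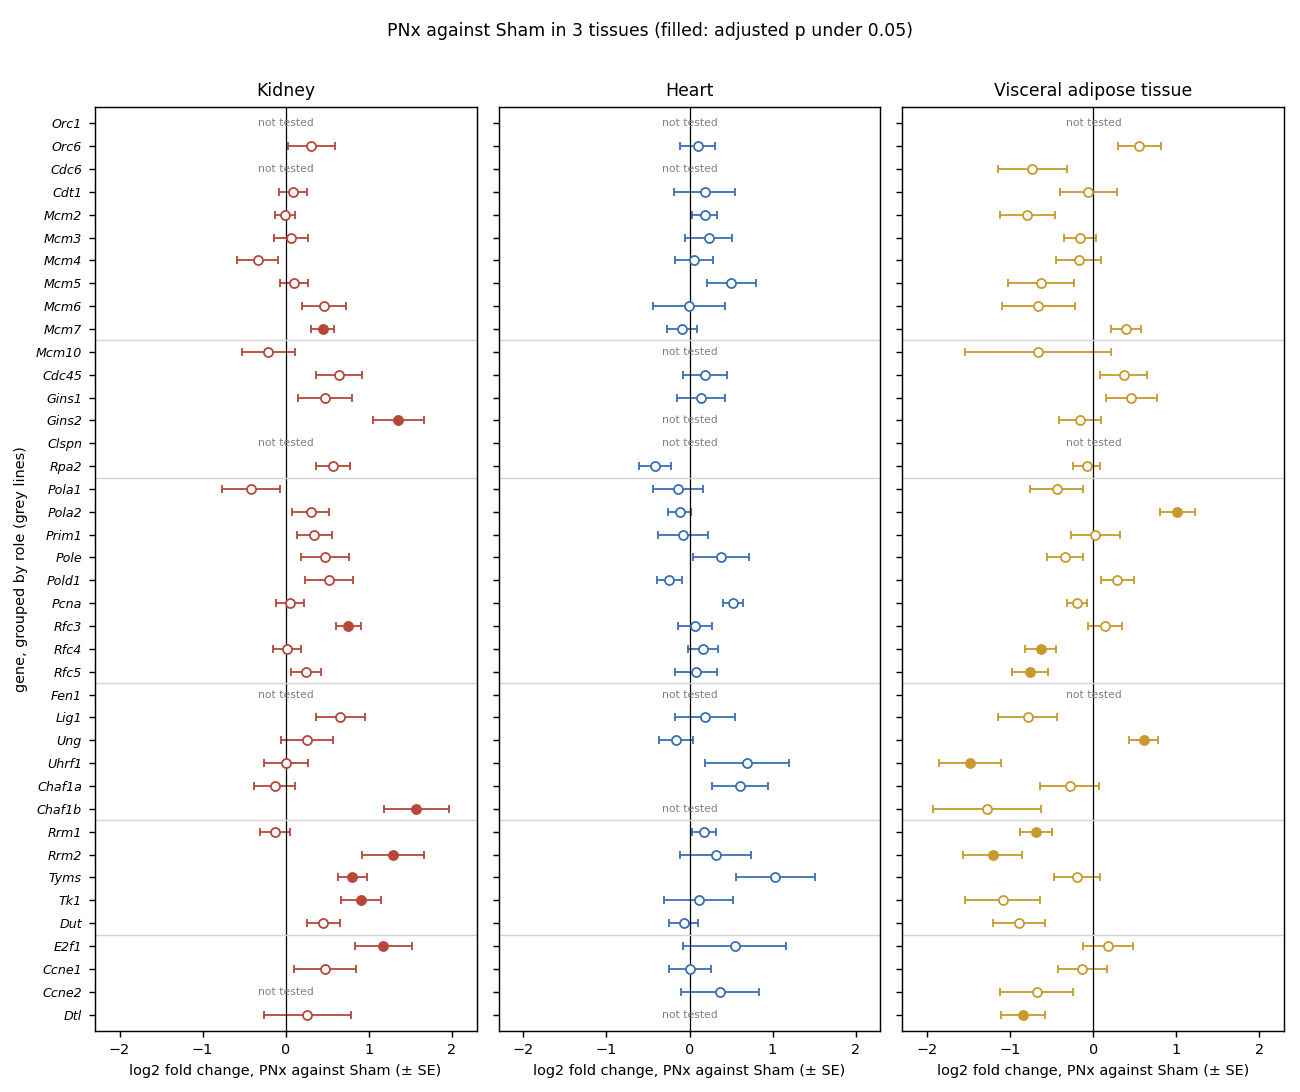
Log2 fold change of each member in PNx against Sham (horizontal axes, ± SE) in kidney, heart and VFAT, with genes grouped by role; filled points passed edgeR's test at an adjusted p under 0.05. The 8 filled kidney points are all positive, the heart has none, and VFAT has 2 positive and 6 negative ones.

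Whether the PNx effect differed between tissues was tested in 1 fit of all 15 groups (39 members tested, all but Orc1). Against VFAT, the kidney effect was higher for 8 members and lower for 1 (11.7% of all genes called, 8.03% higher and 3.71% lower). Differences of effect were 2.47 for Rrm2 (SE 0.55, edgeR adjusted p = 0.00134), 2.75 for Chaf1b (SE 0.70, edgeR adjusted p = 0.00507), 1.93 for Tk1 (SE 0.51, edgeR adjusted p = 0.00711), 1.45 for Gins2, 1.27 for Dut, 0.94 for Rfc5, 1.37 for Lig1 and 2.77 for Clspn, and -0.78 for Pola2, on the log2 scale. Clspn, an adaptor of the replication checkpoint, had at most 20 reads in any Sham or PNx library of either tissue. Rrm2 thus rose in the kidney and fell in VFAT, each past its own test with all libraries. Neither call held in every fit that left out 1 library (edgeR adjusted p up to 0.0804 in the kidney and 0.111 in VFAT). With Sham 2 as the only Sham library the sign in VFAT turned (0.20).

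Against the heart, the VFAT effect was lower for Uhrf1 (-2.15), Fen1 (-2.48), Mcm2 (-0.96), Rrm1 (-0.86), Rfc4 (-0.79) and Pcna (-0.71) and higher for Pola2 (1.14), 7 of 39 (9.41% of all genes, 3.89% higher and 5.52% lower). Fen1, the flap endonuclease of Okazaki fragments, had 3 to 20 reads in the Sham and PNx libraries of VFAT and 1 to 16 in those of the heart. Kidney against heart gave only Rpa2 (0.92, SE 0.25, edgeR adjusted p = 0.0185), 1 of 39, beside 12% of all genes (8.28% higher, 3.76% lower). In heart Sham, Rpa2 was at 19.1 and 23.2 CPM in libraries 2 and 3, the libraries with kidney markers, and at 11.0 to 13.0 CPM in the other 3. The difference was 0.83 (edgeR adjusted p = 0.074) without library 2 and 0.78 (edgeR adjusted p = 0.0689) without library 3. With VFAT Sham 2 as the only VFAT Sham library, no member was called in either comparison with VFAT, and Clspn (-0.10), Chaf1b (-1.90, where Sham 2 has 1 read) and Mcm2 (0.064) changed sign. The labels do not tie tissues to animals, and libraries of different tissues were treated as independent.

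**Figure D5:**
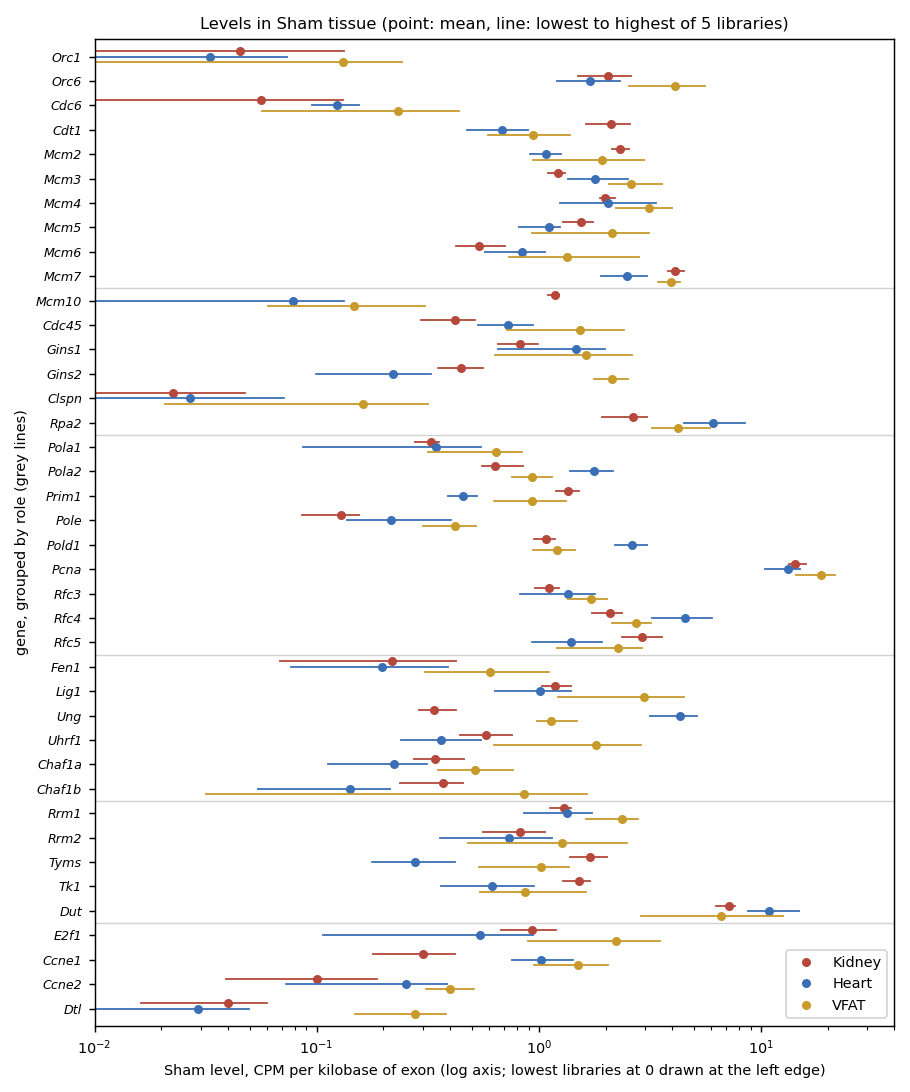
Level of each member in Sham tissue as CPM per kilobase of exon (log axis), with the mean as a point and a line from the lowest to the highest of 5 libraries, for kidney, heart and VFAT. Pcna and Dut have the highest levels in all 3 tissues, and the VFAT lines are the longest for many genes.

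Levels per kilobase of exon were compared between tissues in Sham. The mean was highest in VFAT for 26 of the 40 members, in the kidney for 8 and in the heart for 6, and the deposited FPKM of the same libraries gave the same numbers. The share of all genes highest in each tissue is not given here. The VFAT Sham libraries held 103 (Sham 2) to 8910 CPM of epididymis and testis markers (median 4596). The mean log2 CPM of the members tested in VFAT was 2.51 in Sham 2 and 2.61 to 3.28 in the other VFAT Sham libraries. The median of the members' means was 1.42 CPM per kilobase in VFAT, 1.01 in the kidney and 0.79 in the heart. Pcna had the highest level everywhere, at 14.3 CPM per kilobase in the kidney, 13.2 in the heart and 18.6 in VFAT, followed by Dut at 7.16, 10.9 and 6.62. Orc1, the largest origin recognition subunit, stayed at 0.03 to 0.13 and Clspn at 0.02 to 0.16 CPM per kilobase.

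By edgeR in the joint fit, kidney and heart Sham differed for 21 of 39 members, 10 higher and 11 lower in the kidney (58.7% of all genes called, 30.3% and 28.3%). Mcm10 was 16.4-fold higher in the kidney (9.09 ± 0.36 against 0.60 ± 0.48 CPM, edgeR adjusted p = 5.85e-06), Tyms 6.17-fold, Cdt1 3.02-fold and Prim1, the primase catalytic subunit, 2.99-fold. Ung was 12.7-fold higher in the heart (23.8 ± 4.01 against 1.86 ± 0.30 CPM, edgeR adjusted p = 4.16e-20), followed by Ccne1 (cyclin E1, 3.43-fold), Pola2 (2.77-fold) and Pold1, the catalytic subunit of polymerase delta (2.42-fold).

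VFAT Sham differed from kidney Sham for 29 of 39 members, 26 of them higher in VFAT (51.5% of all genes called, 28.8% higher in VFAT and 22.7% lower), led by Dtl (6.69-fold), Clspn (6.32-fold), Ccne1 (4.98-fold) and Gins2 (4.81-fold). Mcm10 (7.89-fold), Cdt1 (2.24-fold) and Tyms (1.66-fold) were higher in the kidney. From heart Sham it differed for 28 of 39, 22 higher in VFAT (57.1% of all genes called, 32.8% higher in VFAT and 24.4% lower), led by Gins2 (9.93-fold) and Dtl (8-fold). Ung, Pold1, Pola2 and Rfc4 were higher in the heart, Ung by 3.84-fold. With VFAT Sham 2 alone these counts were 17 (11 higher and 6 lower in VFAT) and 12 (7 higher and 5 lower), and Clspn turned sign in both contrasts (0.21 for kidney against VFAT, -0.41 for VFAT against heart), in a fit in which the lone VFAT Sham library is assumed to vary like the other groups. The part of the epididymis and testis transcripts of the other 4 libraries in these levels was not tested.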

How the data were processed

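Bulk RNA from 3 tissues was sequenced as paired reads of 50 bases; 76 libraries were analysed as 74 samples, since 2 second libraries of number 3 (kidney Sham, VFAT Scrambled) were summed with their partners. The authors deposited a table of raw counts per gene and a table of FPKM. The submitters' processing notes name HISAT2 2.1.0, the build GRCm38, Trimmomatic 0.38 and DESeq2 (versions 1.20.0 and 1.20.1). No counter, annotation or strand setting is given in the sources used here. Counts were fitted with edgeR 4.0.16 (TMM, filterByExpr with a minimum count of 10, quasi-likelihood F test), 1 fit per tissue over 5 arms, with p-values adjusted over all genes tested (Benjamini-Hochberg, called under 0.05). SE is the absolute log2 fold change over the square root of F. CPM are adjusted by TMM within the tissue; per-kilobase levels use 1 joint fit of 15 groups and GENCODE M21 exon lengths. DESeq2 1.42.0 and limma 3.58.1 in R 4.3.3 served as alternatives, with other filters, libraries left out and a replicate block. The edgeR script was tested on simulated data for kidney PNx against Sham. It recovered 6 of 50 genes changed 1.5-fold, 31 of 50 changed 2-fold and 41 of 50 changed 3-fold, with 7 false calls. A change of 1.5-fold was thus mostly missed.

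Every called member is named in a comparison (up to 12), or else the 3 of lowest p; in contrasts between tissues, the 4 of largest change in each direction, and the remaining called members were added after their values were seen. The members and lists were chosen with earlier results of these data known. Depth sets the precision: totals ran from 1241590 to 22287510 counts, and CPM of rare genes in the smallest samples move with single reads.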

Additional observations from a re-analysis of the deposited data

Results flagged for a closer look

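In the groups of 4 or 5 samples of 9 members shown by library, 125 groups were examined, 10 held a sample that stood apart from the rest by Dixon's criterion, and chance alone marks about 1 in 20. In the kidney these were Chaf1b in PNx 3 (13.4 CPM) and E2f1 in Control 5 (18.5 CPM). In the heart they were Rrm2 in PNx 1 (4.79 CPM) and Scrambled 3 (6.23 CPM), Tyms in PNx 1 (6.23 CPM) and Scrambled 3 (5.54 CPM), E2f1 in Scrambled 3 (3.35 CPM) and Mcm5 in NaKtide 5 (4.31 CPM). In VFAT they were Gins2 in NaKtide 1 (15.3 CPM) and E2f1 in Control 1 (13 CPM).

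The effect of PNx differed between tissues by a test of the difference itself for several members. Between kidney and heart it was larger in the kidney for Rpa2 (0.92 on the log2 scale). Between kidney and VFAT it was larger in the kidney for Clspn (2.77), Chaf1b (2.75), Rrm2 (2.47) and Tk1 (1.93) and smaller for Pola2 (-0.78). Between VFAT and heart it was larger in VFAT for Pola2 (1.14) and smaller for Fen1 (-2.48), Uhrf1 (-2.15), Mcm2 (-0.96) and Rrm1 (-0.86).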

How the results depend on the processing

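The 8 members called in kidney PNx against Sham became 5 with no expression filter, where 1007 genes in all were called, against 2742 in the main fit. The count was 1 with only these arms in the fit and 3 when the RNA length index was a covariate. It was 1 without the 5 kidney libraries of high length index and 2 without PNx 3. Leaving out 1 library at a time gave 2 to 11, and Rfc3 and Tyms were called each time. The count was 2 without PNx 3, 3 without Sham 2 or Sham 4, 4 without Sham 3 or Sham 5, and 5 without PNx 4, PNx 5 or Sham 1. None of the 8 was lost without PNx 1 or PNx 2 (length index -0.99 and -1.08), and the 11 came from 1 of these fits. The number of all genes called with only these arms, with the length index and in most fits leaving out 1 library is not given here. The 8 in VFAT became 16 with limma voom, 3 with no filter, 1 with only these arms, and 0 with Sham 2 as the only Sham library; leaving out 1 library gave 2 to 10 (2 without Sham 4, 3 without PNx 3, 4 without PNx 5 or Sham 1, 5 without Sham 3 or Sham 5), with Pola2 and Uhrf1 called each time. Mcm10 in VFAT Scrambled against Control (1 called) gave 0 with limma voom, with only these arms and without the second library, and 0 to 1 leaving out 1 library. Limma voom called 9 in kidney NaKtide against PNx, 9 in NaKtide against Scrambled and 5 in Scrambled against Control (1 with the length index). In the same order it called 6773, 4401 and 1489 of all 16307 genes. In VFAT it called 7, 2 and 1 in NaKtide against PNx, Scrambled against PNx and NaKtide against Scrambled. For VFAT, the 16 above included, and the heart, its share of all genes called is not given here. In the heart, DESeq2 called 1 in PNx against Sham (0 to 1 leaving out 1 library) and 2 in Scrambled against PNx, as did limma voom (2). The cause was not tested.

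Between tissues, the 9 differences of effect for kidney and VFAT became 18 with limma voom and 0 with VFAT Sham 2 alone (5 to 14 leaving out 1 library: 14 without VFAT Sham 2, 5 without VFAT Sham 4), the 7 for VFAT and heart 14 and 0 (4 to 14: 14 without VFAT Sham 2, 4 without VFAT Sham 1), and the 1 for kidney and heart 5 with limma voom (0 to 2: 0 without heart Sham 2 or Sham 3). With VFAT Sham 2 alone, Sham contrasts gave 17 called members (14 of them among the 29 for kidney and VFAT) and 12 (all among the 28 for VFAT and heart). Signs turned in that setting for Uhrf1 (0.072), Rfc5 (0.18) and Rrm2 (0.20) in VFAT PNx against Sham, for Clspn (-0.10) and Chaf1b (-1.90) in kidney minus VFAT, for Mcm2 (0.064) in VFAT minus heart, for Clspn (0.21) in kidney against VFAT Sham, and for Chaf1b (-2.14) and Clspn (-0.41) in VFAT against heart Sham. Without the 5 kidney libraries, Chaf1b (0.054) and Tk1 (0.10) turned in Scrambled against PNx. Without heart PNx 1 and 2 and Scrambled 3, Mcm5 (0.0024) turned in heart Control against PNx. The VFAT Sham 2 and heart settings were chosen after seeing the data. Beside the 18, 14 and 5 members, limma voom called 7869, 3170 and 5883 of all 19180 genes.

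With the replicate block, kidney PNx against Sham gave 8 called members, VFAT PNx against Sham 5 (Rfc5, Ung and Dtl lost) and VFAT Scrambled against Control 0. It moved no other count of called members by over 1.5 times. At an unadjusted p under 0.05 it gave 1 in place of 3 in heart PNx against Sham and in Control against PNx, 2 in place of 4 in NaKtide against PNx, 1 in place of 2 in Scrambled against Control and in kidney NaKtide against Scrambled, and 0 in place of 1 in VFAT NaKtide against Scrambled. Whether the numbers pair samples cannot be read from the labels. Within a tissue, the median correlation of same-numbered samples' deviations between arms was -0.0076 in the kidney, -0.065 in the heart and -0.023 in VFAT. For samples of different number it was -0.0064, 0.024 and 0.0032. Single same-numbered pairs ran from -0.62 to 0.72 in the kidney, -0.53 to 0.49 in the heart and -0.75 to 0.69 in VFAT. Pairing across tissues was not examined. Members under about 10 reads a library (Orc1, Cdc6, Clspn, Fen1) could not be tested or carry wide errors.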
